A study of Equus caballus with 25 samples.

Results

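INHBA, TGFB1 and SMAD7 are 3 genes of the transforming growth factor beta (TGF beta) family and its signaling path, and their transcripts were followed in cells of bronchoalveolar lavage (BAL) fluid from 25 horses. INHBA was taken by its probe identifier, ENSECAT00000023984. TGFB1 (ENSECAT00000012048) and SMAD7 (ENSECAT00000021905) were taken by the transcripts that the study's lists of changed transcripts pair with these symbols. They are 3 of the 7238 transcripts on the array and 3 of the 4930 that passed the intensity filter. Each has 1 probe, spotted 2 times per array. All 3 symbols come from a list of transcripts that the study called changed between severe asthma and control in the same horses, so that the direction of that comparison is not independent evidence.

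The study asked how gene expression in the airways differs between horses with mild equine asthma (MEA, labelled IAD), horses with severe equine asthma (SEA, labelled RAO) and healthy controls (CTRL). There were 7 CTRL, 10 MEA and 8 SEA horses, with 1 one-color array per horse on 4 slides. CTRL horses were standardbreds without signs of respiratory disease, whereas both affected groups held standardbred and saddle horses sampled when presented as clinical cases, and the SEA horses were older. Breed and age therefore differ between groups, and their part in any difference was not tested.

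TGF beta family ligands are secreted proteins that bind paired serine/threonine kinase receptors, and the receptors pass the signal to the nucleus through SMAD proteins. TGFB1 encodes TGF beta 1, which restrains immune responses and drives matrix production in the airway, and INHBA encodes the subunit of activin A, a ligand that is released during inflammation. SMAD7 is an inhibitory SMAD that is itself switched on by the signal and blocks the receptors.

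The sequences of the array probes show which stretch of each transcript was measured and are printed here from 5′ to 3′, all in lower case since no part is singled out.
INHBA: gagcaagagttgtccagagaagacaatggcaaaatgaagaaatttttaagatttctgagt
TGFB1: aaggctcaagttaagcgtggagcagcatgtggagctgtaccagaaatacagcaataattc
SMAD7: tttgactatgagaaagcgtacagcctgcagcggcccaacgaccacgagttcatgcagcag
Each probe had 60 bases, and no other transcript on the array carried the same probe. Guanine and cytosine made up 35% of the INHBA probe, 45% of the TGFB1 probe and 55% of the SMAD7 probe, against a median of 45% over the 7238 probes.

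All 50 spots of each of the 3 probes were well above background, and none was saturated or marked as an outlier by the scanner software. On the log2 scale, the median gap between the spots of an array was 0.14 for INHBA, 0.14 for TGFB1 and 0.16 for SMAD7. The gap was wider in single arrays. The spots of INHBA lay 1.80 apart and those of SMAD7 1.40 apart in SEA replicate 8, and those of TGFB1 1.12 apart in CTRL replicate 7. Both arrays were on slide 4, which held 8 of the 10 gaps above 0.5. The mean of the 2 SMAD7 spots of SEA replicate 8 (7.76 and 6.35) is the highest SEA value of SMAD7 given below, 7.05. These gaps enter the values of those arrays, and with 7 to 10 arrays per group precision is limited.

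INHBA was the member with the widest spread. Its log2 normalized intensity ranged from 5.98 to 11.29 in CTRL with a median of 8.21, from 6.42 to 13.52 in MEA with a median of 9.02, and from 8.26 to 13.92 in SEA with a median of 12.34. In SEA, 7 of 8 horses lay above every CTRL horse, at 11.78 or more, and SEA replicate 1 alone lay within the CTRL range. In CTRL, replicate 7 was highest at 11.29 and the next horse was at 8.63. In MEA, replicates 3 and 5 were at 13.52 and 12.08, within the range of the other SEA horses, and the remaining 8 MEA horses lay between 6.42 and 9.80. The SD between horses was 1.64 in CTRL (n = 7), 2.20 in MEA (n = 10) and 1.68 in SEA (n = 8), larger than that of 98.6%, 99.7% and 96.1% of the transcripts tested.

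TGFB1 was much more even between horses. Its log2 intensity ranged from 8.16 to 9.47 in CTRL with a median of 9.04, from 8.57 to 10.13 in MEA with a median of 9.66, and from 9.45 to 10.16 in SEA with a median of 9.90. The SEA and CTRL ranges met only at their ends, where SEA replicate 7 at 9.45 lay below CTRL replicate 5 at 9.47. The SEA horses above every CTRL horse numbered 7 of 8, 6 with 75th percentile scaling or quantile normalization and 8 with normexp. In MEA, 7 of 10 horses lay above every CTRL horse, and MEA replicate 7 was lowest at 8.57. Its SD between horses was 0.41 among CTRL, 0.42 among MEA and 0.25 among SEA horses, where only 5.54% of the transcripts tested varied less.

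SMAD7, the inhibitor, had SEA values that lay above the CTRL values by a narrow margin. Its log2 intensity ranged from 3.99 to 5.61 in CTRL with a median of 4.94, from 4.77 to 6.72 in MEA with a median of 5.59, and from 5.69 to 7.05 in SEA with a median of 6.39. All 8 SEA horses lay above all 7 CTRL horses, a separation that 1.56% of the transcripts tested had, with SEA replicate 1 lowest at 5.69 and CTRL replicate 2 highest at 5.61. The separation was lost with 75th percentile scaling, quantile normalization and the authors' values, where 7 of 8 SEA horses lay above every CTRL horse. In MEA, 5 of 10 horses were above the highest CTRL horse. Its SD between horses of a group was 0.59 (CTRL), 0.69 (MEA) and 0.49 (SEA).

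**Figure D1:**
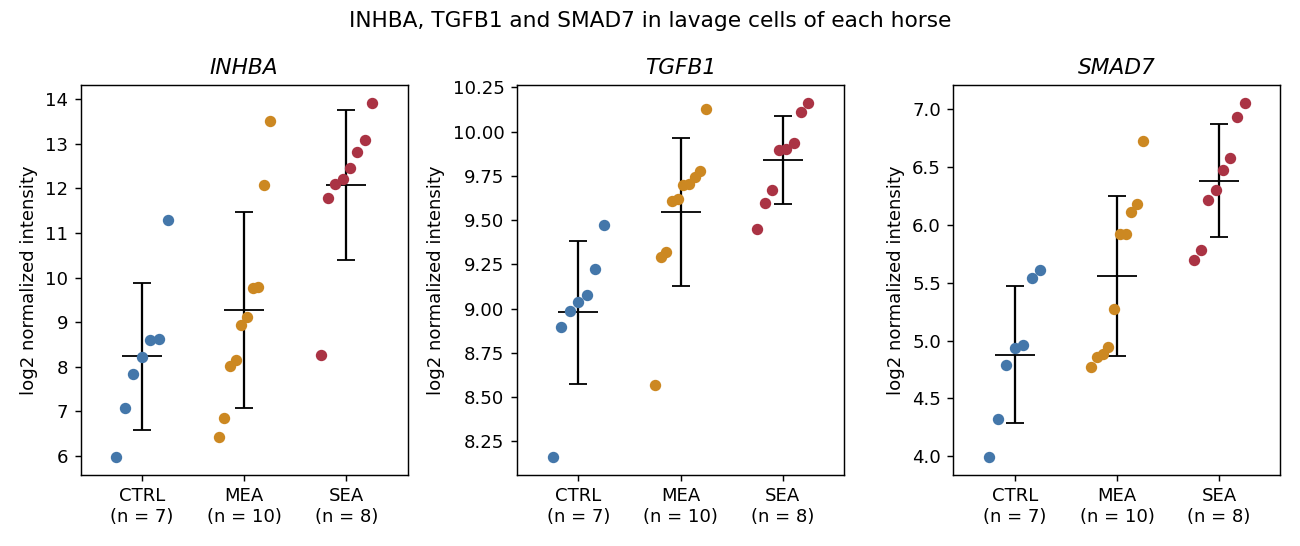
Log2 normalized intensity of INHBA, TGFB1 and SMAD7 (y axes, scaled separately) in each of 7 CTRL, 10 MEA and 8 SEA horses; points are horses, the long line is the group mean and the bars are 1 SD. The SEA horses lie just above the CTRL horses for SMAD7 (lowest 5.69 against highest 5.61), overlap at the ends for TGFB1, and overlap through SEA replicate 1 (8.26) and CTRL replicate 7 (11.29) for INHBA.

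All 3 members were higher in SEA than in CTRL. A transcript was called at a limma adjusted p below 0.1 (Benjamini-Hochberg over all 4930 transcripts) and a fold change of at least 1.5, and 3 of the 3 members were called higher. Of all transcripts tested, 32.7% were called in either direction and 16% called higher, and of the 1684 tested transcripts with a symbol 86.3% were called, since the symbols come from lists of called transcripts. INHBA rose from a mean of 8.23 in CTRL to 12.08 in SEA, a log2 difference of 3.85 (SE 0.78) or 14.4-fold (95% interval 4.59 to 45.2; limma adjusted p = 0.00721), the second largest rise of the 4930. TGFB1 rose from 8.98 to 9.84, a log2 difference of 0.86 (SE 0.19) or 1.82-fold (95% interval 1.37 to 2.41; limma adjusted p = 0.00986). SMAD7 rose from 4.88 to 6.38, a log2 difference of 1.5 (SE 0.27) or 2.83-fold (95% interval 1.89 to 4.23; limma adjusted p = 0.00469). For each member all 8 SEA horses were above the CTRL mean. In these bulk samples, a change in the share of a cell type cannot be told apart from a change in RNA per cell.

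The SEA mean was above the CTRL mean on each of the 4 slides for each member, but by little for INHBA on slides 1 and 4. In a fit with slide as a block, the log2 difference was 3.59 for INHBA, 0.85 for TGFB1 and 1.5 for SMAD7, all called. Within slides 1 to 4, INHBA differed by 0.42, 5.24, 4.86 and 0.81. On slide 1 the only SEA horse, replicate 1 at 8.26, lay below CTRL replicate 2 at 8.59, and slide 4 set 1 SEA horse against CTRL replicate 7 alone. TGFB1 differed by 1.57, 0.62, 0.66 and 0.89 within the slides, and SMAD7 by 0.73, 1.95, 1.46 and 1.51. The log2 difference of SMAD7 was 0.57, below the fold change limit, with normexp background correction (limma adjusted p = 0.0148, range over the alternatives 0.00349 to 0.0148). Normexp was run with an offset of 50 added to the intensities, and without it those of SMAD7 in CTRL lay between 15.9 and 48.8. The part of the offset in the smaller difference was not tested.

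Between MEA and CTRL, none of the 3 members was called, where 9.78% of all transcripts tested were and 25.2% of those with a symbol. INHBA differed by 1.03 (SE 0.88) on the log2 scale, with a 95% interval of -0.81 to 2.88 and a limma adjusted p of 0.498, and 6 of 10 MEA horses were above the CTRL mean. TGFB1 differed by 0.57 (SE 0.21), or 1.48-fold with a 95% interval of 1.09 to 2.02, just under the fold limit (limma adjusted p = 0.124, range over the alternatives 0.0804 to 0.460), and 9 of 10 MEA horses were above the CTRL mean. SMAD7 differed by 0.68 (SE 0.31), or 1.60-fold with a 95% interval of 1.02 to 2.51 (limma adjusted p = 0.197), and 8 of 10 MEA horses were above the CTRL mean. A p above the limit does not show that the groups were alike, and the intervals of TGFB1 and SMAD7 lay above 1. The adjusted p of TGFB1 was below the limit with the exact rank sum test (0.0804) and with all 25 arrays in 1 limma fit, where its fold kept it from being called. TGFB1 was called without MEA replicate 7 (log2 difference 0.68, limma adjusted p = 0.0300) and without CTRL replicate 5 (0.65, limma adjusted p = 0.0990). Blocking on slide, the differences were 1.03 for INHBA, 0.63 for TGFB1 and 0.84 for SMAD7. Slides 1 to 4 gave 1.62, 3.21, 1.34 and -2.55 for INHBA, 1.11, 0.47, 0.71 and 0.17 for TGFB1, and 1.45, 1.13, 1.04 and -0.42 for SMAD7. Both negative values came from slide 4, with 5 MEA horses and CTRL replicate 7 alone.

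Between SEA and MEA, none of the 3 members was called either. This comparison called 2.23% of all transcripts tested and 5.64% of those with a symbol. Of the 110 called, 71 were higher in SEA (1.44% of all tested) and 39 lower (0.791%), and with quantile normalization 33 were higher and 6 lower. The median log2 difference of all transcripts was -0.04, and -0.13 with scaling to the 75th percentile. INHBA was 2.82 (SE 0.86) higher in SEA on the log2 scale, or 7.04-fold with a 95% interval of 2.02 to 24.6, and its limma adjusted p of 0.114 was just above the limit. INHBA was called when all 25 arrays entered 1 fit (limma adjusted p = 0.0736, range over the alternatives 0.0736 to 0.372) and without SEA replicate 1 (log2 difference 3.36), MEA replicate 3 (3.29) or MEA replicate 5 (3.13). TGFB1 differed by 0.30 (SE 0.19), or 1.23-fold with a 95% interval of 0.937 to 1.61 (limma adjusted p = 0.366). SMAD7 differed by 0.82 (SE 0.28), or 1.77-fold with a 95% interval of 1.17 to 2.67 (limma adjusted p = 0.140), and it was called without SEA replicate 1 (0.92) or MEA replicate 3 (0.89). The SEA horses above the MEA mean numbered 7 of 8 for INHBA, 7 of 8 for TGFB1 and 8 of 8 for SMAD7. Blocking on slide, the differences were 2.05, 0.30 and 0.70 for INHBA, TGFB1 and SMAD7. Within slides 1 to 4 they were -1.20, 2.03, 3.52 and 3.35 for INHBA, 0.45, 0.15, -0.06 and 0.71 for TGFB1, and -0.72, 0.83, 0.42 and 1.93 for SMAD7.

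For all 3 members the group means followed the order CTRL, MEA, SEA, an order that 1299 of the 4930 transcripts tested had (26.3%), and 41.0% of those with a symbol. In that order, no member was called between the neighbours CTRL and MEA or between the neighbours MEA and SEA. The MEA mean stood at 26.8% of the way from CTRL to SEA for INHBA, at 65.8% for TGFB1 and at 45.3% for SMAD7. Without single horses it ranged from 14.5% (without MEA replicate 3) to 35.4% (without CTRL replicate 7) for INHBA, from 58.3% to 78.4% for TGFB1 and from 36.6% to 51.1% for SMAD7. For INHBA, the step from MEA to SEA was 1.78 larger than the step from CTRL to MEA (95% interval -1.20 to 4.77), for TGFB1 it was smaller, with a difference of -0.27 (-0.93 to 0.39), and for SMAD7 the difference was 0.14 (-0.86 to 1.14), all on the log2 scale. None of these differences passed limma's test over all 25 arrays (adjusted p = 0.626, 0.747 and 0.925), so that a uniform grading was not told apart from an uneven one. None of the 4930 transcripts passed it at an adjusted p below 0.1 in limma, while 675 had an unadjusted p below 0.05. That count was not stable, with 71 passing without MEA replicate 1 and 42 without SEA replicate 6. The sign of the step difference was not fixed for SMAD7, which was -0.0803 with scaling to the 75th percentile, nor for TGFB1, which was 0.0177 with normexp background correction.

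Between horses of the same group, no pair of members passed the test of a correlation, and differences between correlations were not tested. The 3 pairs of members and the relation of each member to a neutrophil marker mean were computed in 3 groups, which made 18 relations over which p was adjusted. INHBA and SMAD7 had a Pearson r of 0.65 in the 10 MEA horses (permutation p = 0.0454, adjusted p = 0.164, Spearman rho 0.72, permutation p = 0.0235, adjusted p = 0.107), and r was 0.68 without the 2 horses farthest from the INHBA median. In the 7 CTRL horses r was 0.55 (exact permutation p = 0.182, adjusted p = 0.391, rho 0.64, exact p = 0.139, adjusted p = 0.340), and 0.74 without the 2 farthest. In the 8 SEA horses r was 0.53 (exact permutation p = 0.196, adjusted p = 0.391, rho 0.19, exact p = 0.665, adjusted p = 0.665), and it was -0.60 without SEA replicates 1 and 2, so that the positive value in SEA rests on those horses.

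The ligands INHBA and TGFB1 had a relation of differing sign in the groups. Their r was 0.17 in CTRL (exact permutation p = 0.729, adjusted p = 0.772, rho 0.25, exact p = 0.595, adjusted p = 0.656) and 0.24 in MEA (permutation p = 0.514, adjusted p = 0.617, rho 0.37, p = 0.297, adjusted p = 0.490). In SEA it was -0.57 (exact permutation p = 0.107, adjusted p = 0.306, rho -0.57, exact p = 0.151, adjusted p = 0.340). Leaving out the 2 farthest horses of each group gave 0.94 among CTRL, 0.15 among MEA and -0.82 among SEA horses. With normexp r was -0.18 in SEA. SEA replicate 1, the lowest SEA horse for INHBA, was the highest SEA horse for TGFB1 at 10.16.

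TGFB1 and SMAD7 had an r of 0.54 in CTRL (exact permutation p = 0.229, adjusted p = 0.412, rho 0.64, exact p = 0.139, adjusted p = 0.340), 0.37 in MEA (permutation p = 0.299, adjusted p = 0.448, rho 0.37, p = 0.296, adjusted p = 0.490) and 0.24 in SEA (exact permutation p = 0.564, adjusted p = 0.634, rho 0.21, exact p = 0.619, adjusted p = 0.656). Without the 2 farthest horses r was 0.80, -0.15 and 0.21, so that the MEA value rests on MEA replicates 1 and 7. The values in CTRL and SEA depended on the background correction, and with normexp r was 0.0369 in CTRL and 0.69 in SEA. The MEA horses with the 4 lowest SMAD7 values, replicates 7 to 10, were all on slide 4. With each slide's mean taken off in MEA, where 9 of 10 horses shared a slide with another, r was 0.85 for INHBA and SMAD7 (exact permutation within slides, p = 0.171, adjusted p = 0.358 over 6 relations, rho 0.69, p = 0.271, adjusted p = 0.471). It was 0.17 for INHBA and TGFB1 (exact p = 0.804, adjusted p = 0.896, rho 0.33, p = 0.421, adjusted p = 0.471) and 0.19 for TGFB1 and SMAD7 (exact p = 0.671, adjusted p = 0.896, rho 0.34, p = 0.458, adjusted p = 0.471). In CTRL and SEA a slide held at most 3 horses of the group, too few for this. On slide 4, MEA replicate 3 was the MEA horse with the highest INHBA (13.52) and SMAD7 (6.18). The other MEA horses on that slide had SMAD7 values between 4.77 and 4.94. With slide means taken off, r was not computed without MEA replicate 3.

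**Figure D2:**
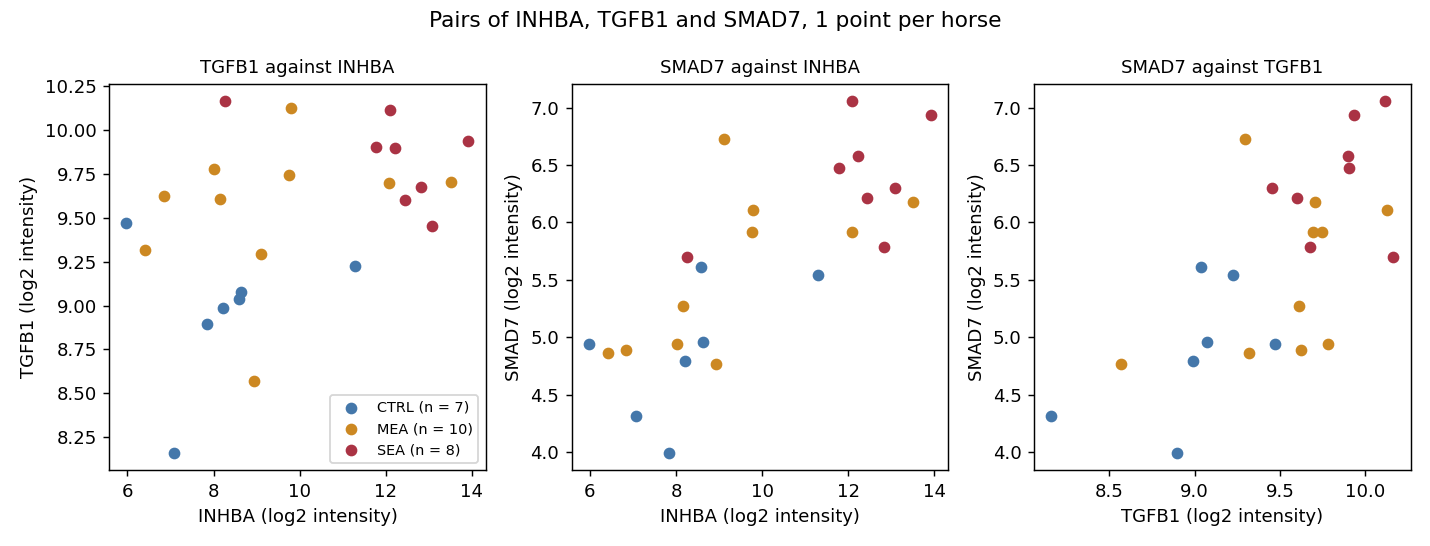
Log2 normalized intensity of TGFB1 against INHBA, SMAD7 against INHBA and SMAD7 against TGFB1, 1 point per horse, colored by group (7 CTRL, 10 MEA, 8 SEA). SMAD7 against INHBA has an r of 0.55, 0.65 and 0.53 in CTRL, MEA and SEA, the last resting on SEA replicates 1 and 2 (-0.60 without them), TGFB1 against INHBA has -0.57 in SEA, and no pair passed the test after adjustment.

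INHBA was set against transcripts that mark neutrophils. Their mean is a measure of RNA and not a count of cells, and whether it follows the number of neutrophils in these horses was not tested. The paper counted cells in each horse, and its counts entered no test here. Matched by horse label, those counts order the horses of each group differently from this mean, which is therefore not read as neutrophil number. Of 23 neutrophil genes listed, 6 carried a symbol in the study's lists, with 7 transcripts, 2 of them of TREM1, and all 7 passed the filter. Between SEA and CTRL 6 of the 7 were called higher and 1 lower (16% and 16.7% of all transcripts tested, and 86.3% of those with a symbol in either direction). Between MEA and CTRL 0 were called higher and 1 lower (3.25% and 6.53%, and 25.2%), and TREM1 gave the brightest signal. The mean log2 intensity of the 7 ranged from 8.10 to 11.12 in CTRL with a median of 9.50, from 8.95 to 13.50 in MEA with a median of 9.48, and from 8.28 to 13.29 in SEA with a median of 11.51. Their summed intensity ranged from 3801 to 22954 in CTRL, from 5193 to 212324 in MEA and from 6543 to 177928 in SEA.

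The relation of INHBA to the neutrophil marker mean had an r of 0.89 in MEA (permutation p = 0.000860, adjusted p = 0.0155), the 1 relation of 18 with an adjusted p below 0.05, with rho 0.82 (p = 0.00572, adjusted p = 0.0964). Without MEA replicates 3 and 5 r was 0.63 and no longer passed, so that the call rests on those horses. With each slide's mean taken off r was 0.98 (exact permutation within slides, p = 0.00417, the smallest it can give, adjusted p = 0.025 over 6 relations, rho 0.92, p = 0.00417, adjusted p = 0.025). MEA replicates 3 and 5 were kept in this value. In SEA r was 0.93 (exact permutation p = 0.00903, adjusted p = 0.0813, rho 0.86, exact p = 0.0107, adjusted p = 0.0964) and 0.94 without the 2 farthest horses. In CTRL r was 0.77 (exact permutation p = 0.0238, adjusted p = 0.143, rho 0.86, exact p = 0.0238, adjusted p = 0.107) and 0.74 without the 2 farthest.

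For TGFB1 the sign of the relation to the neutrophil markers differed between groups. Its r with the marker mean was 0.49 in CTRL (exact permutation p = 0.262, adjusted p = 0.428, rho 0.36, exact p = 0.444, adjusted p = 0.615), 0.07 in MEA (permutation p = 0.95, adjusted p = 0.95, rho 0.31, p = 0.390, adjusted p = 0.585) and -0.57 in SEA (exact permutation p = 0.119, adjusted p = 0.306, rho -0.43, exact p = 0.299, adjusted p = 0.490). Without the 2 farthest horses it was 0.49, -0.30 and -0.14. For SMAD7, r was 0.79 in CTRL (exact permutation p = 0.0397, adjusted p = 0.164, rho 0.82, exact p = 0.0341, adjusted p = 0.123), 0.34 in MEA (permutation p = 0.360, adjusted p = 0.498, rho 0.24, p = 0.511, adjusted p = 0.656) and 0.33 in SEA (exact permutation p = 0.445, adjusted p = 0.572, rho 0.21, exact p = 0.619, adjusted p = 0.656). Without the 2 farthest horses it was 0.47, -0.0378 and 0.30. With each slide's mean taken off in MEA, r with the marker mean was 0.16 for TGFB1 (exact permutation within slides, p = 0.896, adjusted p = 0.896, rho 0.35, p = 0.446, adjusted p = 0.471) and 0.82 for SMAD7 (exact p = 0.179, adjusted p = 0.358, rho 0.42, p = 0.471, adjusted p = 0.471). The part of neutrophil numbers in the rise of the members was not tested.

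**Figure D3:**
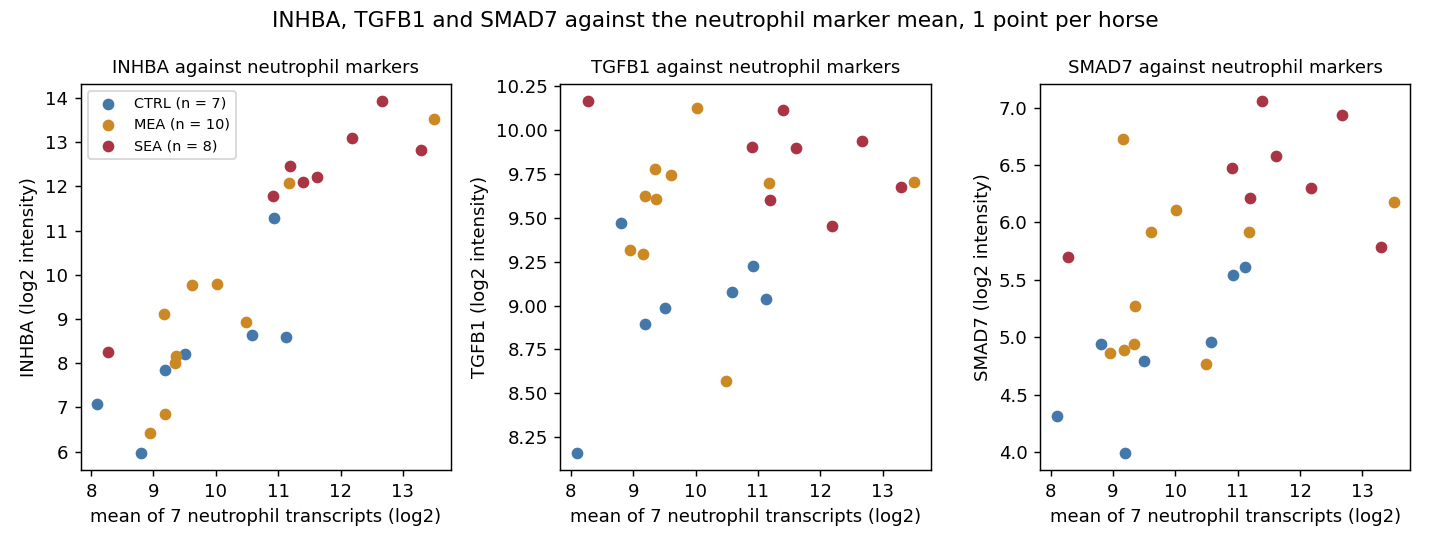
Log2 normalized intensity of INHBA, TGFB1 and SMAD7 against the mean log2 intensity of 7 neutrophil marker transcripts, 1 point per horse, colored by group. INHBA against the marker mean has an r of 0.77, 0.89 and 0.93 in CTRL, MEA and SEA. Of these the MEA value passed the test after adjustment. Without MEA replicates 3 and 5 it was 0.63 and did not pass. The low SEA point is replicate 1 (INHBA 8.26, marker mean 8.28).

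Markers of other cells also differed between the groups. All of these carry a symbol because the study called them changed in the same horses, and of all transcripts tested 16.7% were called lower in SEA and 6.53% in MEA and 16% and 3.25% higher, while 86.3% and 25.2% of those with a symbol were called in either direction. Of the 9 ciliated cell transcripts tested (7 of 12 genes listed), 9 were called lower in SEA and 9 lower in MEA than in CTRL. TPPP3 was the brightest, and their summed intensity had a median of 37228 in CTRL, 12506 in MEA and 9571 in SEA. Of the 6 transcripts of other epithelial cells (5 of 13 genes listed, CLDN7 the brightest), 5 were called lower in SEA and 3 in MEA, with median sums of 18444, 7166 and 4859. Of the 5 macrophage transcripts (4 of 15 genes listed, CD68 the brightest), 1 was called higher in SEA and 2 in MEA, with median sums of 47735, 61265 and 50252. No gene of the 13 lymphocyte or 5 mast cell markers carried a symbol, and DCN, the 1 matched gene of 7 fibroblast markers, did not pass the filter. The part of these cells in the results was not tested.

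The transcripts whose values were most like those of each member were sought among the 1683 other tested transcripts with a symbol, by Pearson r over 25 horses after each group's mean was taken off. This is a description of the nearest of many and carries no test. For INHBA they were TREM1 (2 transcripts, r of 0.91 and 0.90), an amplifying receptor of myeloid cells, NR4A2 (0.90), a nuclear receptor induced early on stimulation, GADD45A (0.90), a stress-induced growth arrest gene, and TG (0.89). Both TREM1 transcripts are also part of the neutrophil marker mean. The median r of all 1683 with INHBA was 0.15.

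For TGFB1 the nearest were ARHGAP25 (0.85) and DOCK11 (0.83), regulators of small GTPases in blood cells, ENTPD1 (2 transcripts, 0.82 and 0.79), the ectonucleotidase CD39, and APBB1IP (0.78), an adaptor of integrin activation. For SMAD7 they were SPAG9 (0.77), a scaffold of JNK signaling, METRNL (0.76), a secreted protein, C6orf145 (0.74), MGLL (0.73), a lipase of monoacylglycerols, and CRLF2 (0.73), a subunit of the receptor for thymic stromal lymphopoietin. No transcript was near more than 1 member in these lists. By the same measure SMAD7 ranked 281 of 1683 for INHBA (r of 0.60) and TGFB1 ranked 1005 (r of 0.06). For SMAD7, INHBA ranked 52 and TGFB1 ranked 336 (r of 0.40). For TGFB1, SMAD7 ranked 207 and INHBA ranked 587.

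The rest of the pathway was read from a list of 143 symbols, of which 34 were paired with 36 transcripts in the study's lists, and 30 of these transcripts passed the filter, members included. GDF5, DCN, WFIKKN1, TGFBRAP1 and both SMURF1 transcripts did not pass. Between SEA and CTRL 19 of the 30 were called higher and 9 lower (16% and 16.7% of all transcripts tested), a share near the 86.3% of all transcripts with a symbol. The median log2 difference was 0.87 over the 30, against -0.01 over all transcripts tested and -0.38 over those with a symbol. These transcripts carry symbols because the study called them changed in the same horses, so that their directions are not independent evidence.

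Of the 6 ligands tested, 2 were called higher and 3 lower in SEA than in CTRL. Of all transcripts tested 16% and 16.7% were, and 86.3% of those with a symbol were called in either direction. The 3 called lower were bone morphogenetic proteins, opposite to INHBA and TGFB1. The log2 differences were -1.72 (SE 0.47) for BMP3, -1.80 (SE 0.53) for BMP7 and -1.24 (SE 0.46) for BMP4, with limma adjusted p of 0.0187, 0.0239 and 0.0562. Both BMP3 spots were well above background in 7 of 7 CTRL but only 4 of 8 SEA horses, so that the size of its difference is uncertain. BMP4 was not called when CTRL replicate 2, CTRL replicate 4 or SEA replicate 3 was left out (-1.13 to -1.02). BMP7 ranged from 5.68 to 8.42 in CTRL and from 2.51 to 5.95 in SEA, so that the groups overlapped only at the edge. TGFB2 differed by -0.97 (SE 0.52) and was not called (limma adjusted p = 0.178). Of the receptors, BMPR1A, a type I receptor of the bone morphogenetic proteins, was called lower by a log2 difference of -1.33, and ENG, the co-receptor endoglin, was called higher by 0.90. SMAD9, which carries the bone morphogenetic protein signal, was called lower by -2.50 (SE 0.61, limma adjusted p = 0.0133), and both spots were well above background in 7 of 7 CTRL, 6 of 10 MEA and 3 of 8 SEA horses, which leaves the size of its difference uncertain. With normexp BMP3, BMP4, BMPR1A, ENG and SMAD9 were not called, and with the replicate block BMP4 and ENG were not, while BMP7 and LTBP3 were called in every alternative. LTBP3, which holds latent TGF beta in the matrix, was called lower by -2.06 (SE 0.56, limma adjusted p = 0.0182) and was well above background in 6 of 8 SEA horses, and HTRA1, a secreted protease, differed by -0.64 and was not called.

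Of 24 intracellular inhibitors and regulators listed, 10 carried a symbol, and 8 transcripts of these were tested. In SEA 7 of the 8 were called higher, where 16% of all transcripts tested were and 86.3% of those with a symbol were called in either direction. SMAD7 was among them, and the median log2 difference of the 8 was 1.1. The others called higher were TGIF1 (1.39, SE 0.39) and TGIF2 (1.05, SE 0.25), repressors that bind SMADs, BAMBI (1.16, SE 0.47), a decoy receptor, PPP1R15A (1.16, SE 0.32), which with SMAD7 brings a phosphatase to the receptor, SKI_HORSE (0.83, SE 0.33), by its symbol the SKI co-repressor, and RNF111 (0.64, SE 0.16), a ubiquitin ligase that degrades SMAD7 and SKI. NEDD4L, a ubiquitin ligase acting on SMADs, was called lower (-0.90, SE 0.32). TGIF1, PPP1R15A and TGIF2 had limma adjusted p of 0.0197, 0.0179 and 0.0123, and BAMBI and SKI_HORSE of 0.0750 and 0.0678. BAMBI lost its call when 1 of CTRL replicates 1, 4, 5, 6 and 7 or SEA replicates 2, 3, 6 and 7 was left out (0.94 to 1.20), SKI_HORSE without CTRL replicate 1, 2 or 4 or SEA replicate 2 or 6 (0.65 to 0.79), and NEDD4L without CTRL replicate 4 (-0.75). BAMBI was also not called with 75th percentile scaling, normexp or the rank sum test, SKI_HORSE with normexp or the rank sum test, NEDD4L with normexp or the replicate block, and TGIF2, RNF111 and TAB2 with normexp, while TGIF1 and PPP1R15A were called in every alternative. TAB2, an adaptor of the branch that runs through the kinase TAK1, was called higher (0.88, SE 0.23, limma adjusted p = 0.0159).

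Of 10 transcripts of known target genes, 8 were called higher and 2 lower in SEA (16% and 16.7% of all transcripts tested, and 86.3% of those with a symbol in either direction), with a median log2 difference of 1.07. TIMP1 (1.32, SE 0.42), an inhibitor of matrix metalloproteinases, JUNB (1.26, SE 0.38), KLF10 (1.20, SE 0.29), ID2 (0.93, SE 0.24) and TGFBI (0.86, SE 0.30) were called higher, with limma adjusted p between 0.0125 and 0.0423. KLF10 was well above background in only 4 of 7 CTRL horses, which leaves the size of its difference uncertain. Its highest CTRL value (4.31) lay below the intensity filter's limit of 4.5. It passed the filter through arrays of SEA (highest 5.12) and MEA horses (highest 4.65) alone. KLF10 was still called without the filter, but not with 75th percentile scaling or normexp. TIMP1, JUNB and ID2 were called in every alternative, and TGFBI in all but the replicate block. FN1, which encodes fibronectin, was called higher too, and lost the call when 1 of CTRL replicates 1, 2, 3, 4 and 6 or SEA replicates 1, 2, 4 and 8 was left out (0.82 to 1.1), as it did with 75th percentile scaling, normexp, no intensity filter, the rank sum test and the replicate block, and for 1 of its transcripts with all 25 arrays in 1 fit. The 2 FN1 transcripts (1.08 and 1.07) were measured by the same probe sequence and are not separate evidence. CTGF, a matrix-associated growth factor that was above background in 5 of 8 SEA horses, fell by 1.70 (SE 0.56, limma adjusted p = 0.0366), a size that is uncertain, and was not called with normexp or the replicate block. SPHK1, a sphingosine kinase, fell by 0.73 (SE 0.28, limma adjusted p = 0.0620) and lost the call with quantile normalization or normexp and without CTRL replicate 1 or 4 or SEA replicate 3, 7 or 8 (-0.68 to -0.58).

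**Figure D4:**
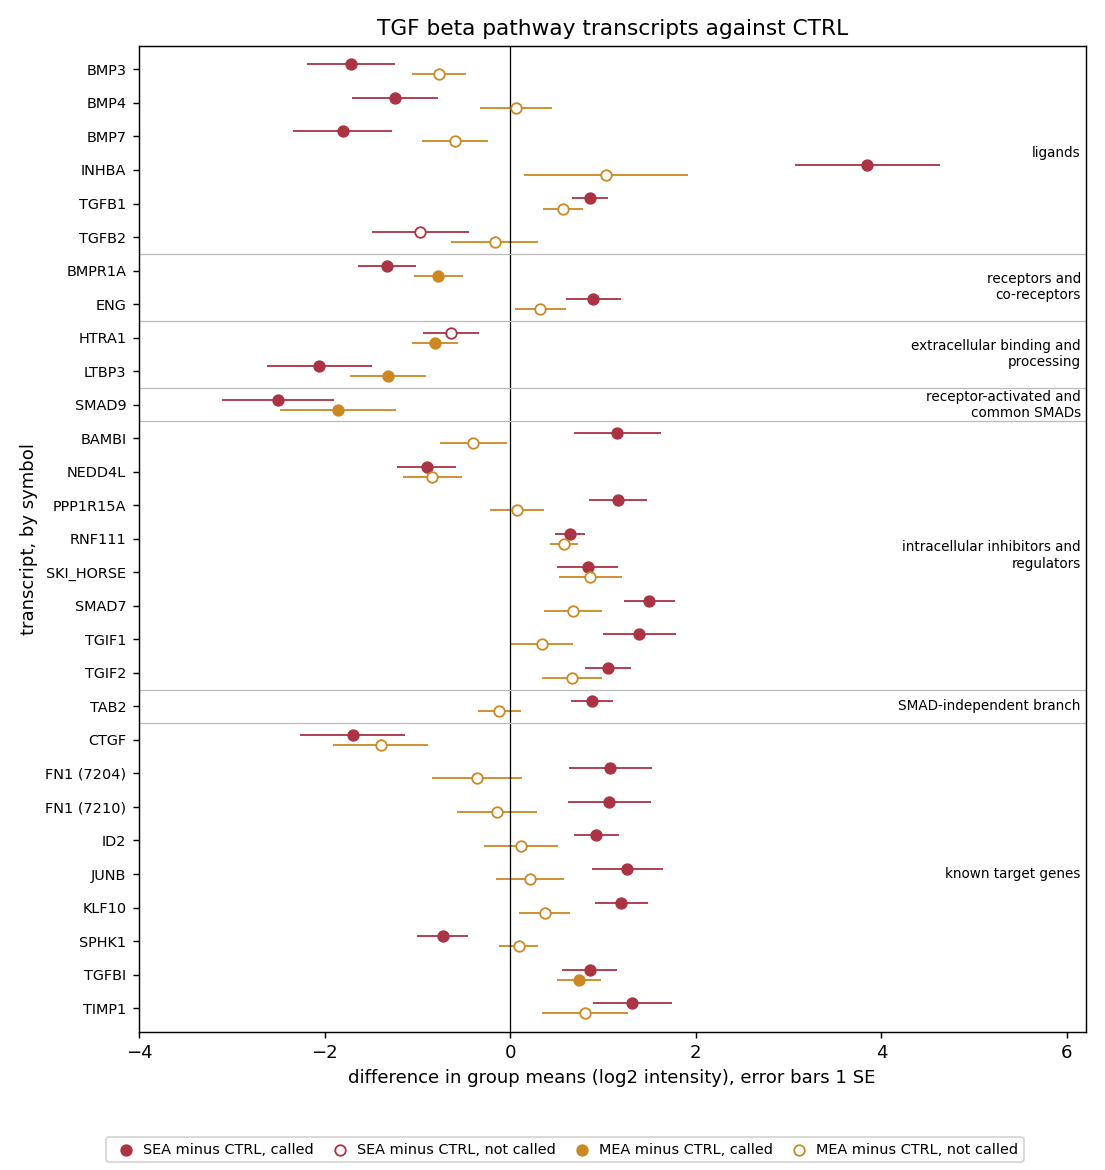
Difference in group means (log2 intensity) of 29 of the tested pathway transcripts, SEA minus CTRL in red and MEA minus CTRL in orange, with bars of 1 SE; filled points were called and open points were not, and lines divide the roles. In SEA 18 of the 29 were called higher and 9 lower (16% and 16.7% of all transcripts tested), where 86.3% of those with a symbol were called. INHBA had the largest rise (3.85). In MEA 1 was called higher and 4 lower (3.25% and 6.53% of all transcripts tested, and 25.2% of those with a symbol in either direction).

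Between MEA and CTRL, 1 of the 30 was called higher and 4 lower, against 3.25% and 6.53% of all transcripts tested. Of the transcripts with a symbol, 25.2% were called in either direction. The median log2 difference of the 30 was 0.08, and 0.03 over all transcripts tested. TGFBI, an extracellular matrix protein, was called higher by 0.74 (SE 0.24), and SMAD9 (-1.85, SE 0.62), LTBP3 (-1.32, SE 0.41), HTRA1 (-0.81, SE 0.25) and BMPR1A (-0.77, SE 0.27) were called lower, with limma adjusted p between 0.0696 and 0.0922. Each of these 5 calls was lost when 1 of 6 to 13 of the 17 horses was left out. Of the 12 alternatives, BMPR1A was not called in 10, LTBP3, SMAD9 and TGFBI in 6 each and HTRA1 in 4, and blocking on slide none of the 30 was called. RNF111 differed by 0.58 (SE 0.15, limma adjusted p = 0.0362), with a fold just under the limit. Between SEA and MEA, PPP1R15A (1.09, SE 0.26), TAB2 (1.0, SE 0.26) and KLF10 (0.83, SE 0.20) were called higher in SEA, and SPHK1 (-0.82, SE 0.22) lower, with limma adjusted p between 0.0709 and 0.0877, so that 3 of the 30 were called higher and 1 lower, against 1.44% and 0.791% of all transcripts tested and 5.64% of those with a symbol in either direction. For KLF10 the MEA mean (3.91) lay below the intensity filter's limit of 4.5 and the SEA mean (4.74) just above it. No CTRL horse reached that limit (highest 4.31), so that KLF10 passed the filter through SEA and MEA arrays alone. Its spots were well above background in 7 of 10 MEA and 8 of 8 SEA horses, which leaves the size of this difference uncertain. No call between SEA and MEA held when slide was a block. The 4 were also lost with 75th percentile scaling, normexp, the rank sum test and the replicate block, KLF10 and SPHK1 with quantile normalization and SPHK1 without the intensity filter, and each of the 4 was lost when 1 of 9 to 13 of the 18 horses was left out. The comparisons share horses, and their values are given side by side for that reason only.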

How the data were processed

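One-color arrays measured BAL cell RNA of 25 horses, grouped by the labelled diagnosis. The authors deposited, for each array, the background-subtracted spot intensity from Agilent Feature Extraction 9.5.1.1, not normalized between arrays, and a table of intensities they had normalized across arrays; the submitters' processing notes name R 2.11.1. From the former, log2 intensities were normalized by cyclic loess (span 0.7, 3 iterations) with limma 3.58.1 (R 4.3.3, with version 1.17.8 of data.table). Spots marked as outliers were left out, the 2 spots of a probe averaged, and transcripts below 4.5 in at least 19 arrays dropped. The share of spots well above background per array ranged from 58.2% to 90.8%. No arrays were identical.

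Each comparison was fitted with lmFit and eBayes to its 2 groups, and the step difference to all 25 arrays; adjusted p values of transcripts are limma's. Correlations were tested by two-sided permutation in scipy 1.17.1 (Python 3.11.15), exact for 7 or 8 horses and with 100000 resamples for 10. The fits were tested on simulated data.

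The members, the pathway list and the marker lists were chosen with earlier results of these data known. Named were the members, every listed pathway transcript that passed the filter except 1, and for each member the 5 nearest transcripts with a symbol. That transcript and some marker transcripts enter the counts and means but are not reported here singly. Horses named singly were chosen after their values were seen. Symbols came from the study's lists, which name 1865 transcripts; no positions are given. Alternatives were normexp (offset 50), quantile normalization, 75th percentile scaling, the values the authors had normalized, no filter, keeping transcripts with both spots well above background on 7 arrays or more, the exact rank sum test, eBayes with trend and robust settings, all 25 arrays in 1 fit, the slide or replicate number as a block, and each horse left out. Keeping outlier spots, and taking slide means off the MEA correlations, were added after seeing the data.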

Additional observations from a re-analysis of the deposited data

Results flagged for a closer look

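In a test for a horse far from the rest of its group, run on the 3 members and 4 marker means in 3 groups, 3 values stood out among 21 groups, where chance flags about 1 in 20 groups. SEA replicate 1 had an INHBA log2 intensity of 8.26, with the next SEA horse at 11.78. MEA replicate 3 had a neutrophil marker mean of 13.50, with the next MEA horse at 11.18, and the same horse had a macrophage marker mean of 8.81, with the next at 9.80. SEA replicate 1 also had the lowest neutrophil (8.28), ciliated cell (5.09) and other epithelial cell (4.77) marker means of the SEA horses and the second highest macrophage marker mean (10.17). In the paper's cell counts, matched by horse label, SEA replicate 1 did not have the lowest neutrophil share of the SEA group. The part of cell makeup in these values was not tested.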

How the results depend on the processing

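The rise in SEA over CTRL kept its direction and its call in all 12 alternatives for INHBA (3.47 to 3.93) and TGFB1 (0.76 to 0.93), and in 11 of 12 for SMAD7, which with normexp was 0.57. Without each of 15 horses in turn, it stayed called for INHBA (3.47 to 4.40), TGFB1 (0.73 to 0.95) and SMAD7 (1.35 to 1.62). Between MEA and CTRL, all 12 alternatives left the members uncalled, with ranges of 0.94 to 1.96 for INHBA (highest with the replicate block), 0.37 to 0.63 for TGFB1 (lowest with normexp) and 0.19 (normexp) to 0.96 (replicate block) for SMAD7; without single horses they were 0.56 to 1.54, 0.43 to 0.68 and 0.53 to 0.80. Between SEA and MEA, INHBA was called with all 25 arrays in 1 fit (2.82), and the ranges without single horses were 2.50 to 3.36, 0.19 to 0.36 and 0.72 to 0.95. Over the alternatives, SEA minus MEA lay between 2.05 and 2.86, 0.28 and 0.39, and 0.38 and 0.82. The step difference of INHBA was 0.63 with the replicate block, that of TGFB1 was 0.0177 with normexp, and that of SMAD7 was -0.0803 with 75th percentile scaling and -0.19 with the replicate block; without single horses it ranged from 1.15 to 2.73 for INHBA, from -0.49 to -0.14 for TGFB1 and from -0.0329 to 0.40 for SMAD7, below 0 without MEA replicate 7 (-0.0329), 8 (-0.0129) or 10 (-0.00693). Within slides, differences turned for INHBA (-2.55 on slide 4, MEA minus CTRL; -1.20 on slide 1, SEA minus MEA), TGFB1 (-0.0598 on slide 3, SEA minus MEA) and SMAD7 (-0.42 on slide 4, MEA minus CTRL; -0.72 on slide 1, SEA minus MEA). Other differences within slides moved by more than the spread between horses without turning, for INHBA on slides 1 and 4 (0.42 and 0.81, SEA minus CTRL) and 2 (3.21, MEA minus CTRL), for TGFB1 on slide 1 (1.57, SEA minus CTRL; 1.11, MEA minus CTRL) and 4 (0.71, SEA minus MEA), and for SMAD7 on slide 1 (0.73, SEA minus CTRL; 1.45, MEA minus CTRL) and 4 (1.93, SEA minus MEA). Normexp was also run on all 7238 transcripts. The cause of these moves was not tested.

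Counts of calls moved too. The step difference passed for 0 transcripts, and for 2 with 75th percentile scaling, 4 with normexp and 1 with the slide as a block; it passed for 71 without MEA replicate 1, 42 without SEA replicate 6, 8 without SEA replicate 1, 7 without MEA replicate 7, 6 without MEA replicate 6, 5 without SEA replicate 3, 2 without MEA replicate 4 and 1 without CTRL replicate 7. Between SEA and CTRL there were 1612, and 780 with normexp (1238 to 1706 without single horses). Between MEA and CTRL there were 482, and 120 with normexp, 183 with the slide as a block and 138 with the replicate block (156 to 750 without single horses, lowest without CTRL replicate 1 and highest without MEA replicate 7). Between SEA and MEA there were 110, and 39 with quantile normalization, 25 with the rank sum test, 279 with all arrays in 1 fit, and 0 with 75th percentile scaling, normexp, the slide as a block or the replicate block, where limma gave 992, 1009, 659 and 638 at an unadjusted p below 0.05 (2 to 559 without single horses, lowest without SEA replicate 2 and highest without MEA replicate 3). Of the pathway list, normexp called 8 higher and 2 lower in SEA (14 to 18 and 6 to 10 without single horses). In MEA the 1 called higher went to 0 with the authors' values, no filter, the slide or the replicate block (0 to 3 without single horses), and TGFBI, the 1, was also not called with 75th percentile scaling or quantile normalization, where another was. The 4 called lower went to 2 with 75th percentile scaling or no filter, 1 with the rank sum test and 0 with normexp, all arrays in 1 fit, the slide or the replicate block (0 to 7 without single horses). The fits with the replicate block changed no call of a member. The numbers only name horses, and of the same-numbered horses 3 of 7 pairs of SEA and CTRL, 4 of 7 of MEA and CTRL and 3 of 8 of SEA and MEA had a correlation above 0.1.

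Correlations that turned without the 2 farthest horses were INHBA and SMAD7 in SEA (-0.60) and, in MEA, TGFB1 and SMAD7 (-0.15), TGFB1 and the neutrophil markers (-0.30) and SMAD7 and the neutrophil markers (-0.0378); INHBA and the neutrophil markers in MEA fell to 0.63. TGFB1 and the neutrophil markers in MEA had -0.11 with quantile normalization and -0.0137 with the authors' values, and SMAD7 and the neutrophil markers in SEA -0.0614 with normexp. Normexp also moved r by more than 0.3, without turning it, for TGFB1 and SMAD7 (0.0369 in CTRL and 0.69 in SEA), and in SEA for INHBA and TGFB1 (-0.18), INHBA and SMAD7 (0.14) and TGFB1 and the neutrophil markers (-0.22).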
